A study of Homo sapiens with 16 samples.

Results

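The genes of the proteasome, the protease that clears most marked proteins from the cell, were measured in 16 human T-ALL lines (T-cell acute lymphoblastic leukemia, which arises from developing T cells). The members were the genes whose symbol starts with PSMA, PSMB, PSMC, PSMD, PSME, PSMF or PSMG followed by a number, without PSMB8 and PSMB9 and without pseudogenes or antisense and divergent transcripts. Of 19738 genes with a probe set naming only that gene, 42 were members, and 40 of these encode a subunit, a regulator or an assembly chaperone. The other members, PSMC3IP and PSME3IP1, carry such a name by virtue of a partner protein and encode no subunit. PSMA6, PSME2, PSMB11, PSMC5, PSMD7 and PSMD13 were not analysed here. The lines were ALL-SIL, CCRF-CEM, DU528, HSB-2, JURKAT, KOPT-K1, LOUCY, MOLT-16, MOLT-4, P12-ICHIKAWA, PEER, PF-382, SKW-3, SUP-T11, SUP-T13 and TALL-1. Each was untreated, was cultured at the same density and gave total RNA after 24 hours. There was 1 array per line, no control group and no replicate, so an SD here is the spread between lines and no line was tested against another.

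The 26S proteasome degrades proteins that carry ubiquitin chains. Its 20S core is a barrel of alpha and beta rings with the catalytic sites PSMB5, PSMB6 and PSMB7 inside, and a 19S regulator on its end binds, unfolds and feeds in the substrate. In cells of the immune system interferon can replace the catalytic subunits by PSMB8, PSMB9 and PSMB10, which changes the peptides offered on class I molecules. The subunits are needed in fixed proportions, and NFE2L1 is the transcription factor known to raise their genes together when the proteasome is inhibited.

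The sequences upstream of 5 members are shown because the results turn on them. PSMA8, PSMD5 and PSMB10 had the largest spread over lines. With the probe sets used, PSMD12 and PSME3 were the pair of chromosome 17 genes that varied most alike. Each is the 250 bases before the transcription start in the RefSeq annotation of GRCh38.p14, written 5′ to 3′ on the strand of the gene. Capitals mark matches to the motifs searched. PSMA8 lies on the plus strand (chr18:26133619-26133868) and its capitals are the ETS motif at -35. PSMD5 lies on the minus strand (chr9:120842923-120843172), with the antioxidant response core at -134. PSMB10 lies on the minus strand (chr16:67936851-67937100), with the interferon response motif at -21. PSMD12 lies on the minus strand (chr17:67366578-67366827), with the antioxidant response core at -165 and the ETS motif at -9. PSME3 lies on the plus strand (chr17:42833147-42833396), with a CCAAT box at -12.
PSMA8: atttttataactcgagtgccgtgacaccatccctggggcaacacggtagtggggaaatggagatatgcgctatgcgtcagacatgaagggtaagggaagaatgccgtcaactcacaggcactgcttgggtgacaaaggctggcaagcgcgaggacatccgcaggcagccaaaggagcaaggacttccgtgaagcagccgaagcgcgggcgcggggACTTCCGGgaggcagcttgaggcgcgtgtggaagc
PSMD5: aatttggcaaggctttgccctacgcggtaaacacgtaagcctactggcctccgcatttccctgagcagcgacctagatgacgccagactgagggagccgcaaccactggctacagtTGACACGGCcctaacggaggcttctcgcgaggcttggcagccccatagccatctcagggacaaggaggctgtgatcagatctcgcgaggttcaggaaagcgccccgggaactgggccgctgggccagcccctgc
PSMB10: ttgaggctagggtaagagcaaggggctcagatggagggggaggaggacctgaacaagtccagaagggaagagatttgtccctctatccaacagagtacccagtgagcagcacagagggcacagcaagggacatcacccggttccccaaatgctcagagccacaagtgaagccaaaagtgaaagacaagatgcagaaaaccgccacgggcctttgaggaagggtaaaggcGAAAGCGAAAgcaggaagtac
PSMD12: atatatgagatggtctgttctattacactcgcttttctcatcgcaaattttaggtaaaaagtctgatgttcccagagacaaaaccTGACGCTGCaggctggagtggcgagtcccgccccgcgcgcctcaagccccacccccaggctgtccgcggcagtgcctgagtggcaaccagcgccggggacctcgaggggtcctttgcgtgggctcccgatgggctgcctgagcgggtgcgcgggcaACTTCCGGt
PSME3: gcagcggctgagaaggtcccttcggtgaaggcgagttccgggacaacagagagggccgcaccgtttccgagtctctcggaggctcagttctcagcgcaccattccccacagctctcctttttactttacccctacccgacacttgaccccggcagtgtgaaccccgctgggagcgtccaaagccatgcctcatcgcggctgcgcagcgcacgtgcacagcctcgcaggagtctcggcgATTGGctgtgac

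Promoter windows of 300 bases, 250 before and 50 after a start, were found for 36 of the 42 members, which had 44 windows among 35116 of all genes. Each motif was searched on both strands, so that ACTTCCGG counts as the ETS motif and ATTGG as CCAAT, and a match could overlap one of another motif. The antioxidant response core TGACNNNGC, through which NFE2L1 and its relatives bind, stood in 27.3% of the members' windows and in 13.3% of all windows. The ETS motif CCGGAAGT stood in 20.5% against 4.14%, and the interferon response motif (GAAA, 2 free bases and GAAA) in 11.4% against 3.57%. That last motif was in the windows of PSMA4, PSMB4, PSMB10, PSME1 and PSMG4. The shares were 45.5% against 34.6% for CCAAT and 9.09% against 5.78% for the nuclear respiratory factor motif (GCGCA, 1 free base and GCGC). The members' windows held a median of 22.5 CpG dinucleotides and all windows 14. A match is a description of these letters, and the part of base composition in the shares was not tested.

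The intensities below are the linear values as deposited. Their median over the table was 42.4. SDs, ranges and r values were computed on log2(intensity + 16). Array medians ran from 37.6 in MOLT-16 to 45.0 in LOUCY. T cell markers were present (CD3D, a chain of the T cell receptor complex, ran from 7095 to 14179), but CD3E was at 31.15 in MOLT-16. Of the markers of other cell types, 2 of 3 B cell, 3 of 4 myeloid, 1 of 2 erythroid and 4 of 5 stromal and epithelial genes never exceeded 4 times the table median. CD79A, a B cell gene, lay between 215 and 411 in every line, LYZ, a myeloid gene, reached 385 in DU528, and HBB reached 280 in LOUCY. A lower bulk value cannot tell fewer expressing cells from less RNA per cell. With 1 culture and 1 array per line, the line, its culture and its array cannot be told apart.

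All 42 members passed the filter on low values (the 3rd highest value of a gene above the table median), as did 13295 genes in all. In every line 40 of the members lay above 4 times the table median of 42.4, the exceptions being PSMA8 and PSMD5. The lowest value of any of the 27 genes for rings, ATPases, base and lid, called the core genes below, was 1089, for PSMB5 in P12-ICHIKAWA. The median SD was 0.24 for the members and 0.19 for the core genes alone, beside 0.41 over the genes passing the filter. Over the 3879 genes with a mean above 10 on the log2 scale, which are closer in brightness, the median SD was 0.32.

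The highest line exceeded the lowest by a median of 1.84-fold for the 42 members and 1.65-fold for the core genes, against 2.89-fold for the genes passing the filter. The range stayed under 1 log2 unit in 28 members and in 22 of the 27 core genes, where 21.2% of the genes passing the filter and 32.6% of those with a mean above 10 did so. It exceeded 2 log2 units in 4 members, PSMA8, PSMD5, PSMB10 and PSMG4, and in 0 core genes, against 35% of the genes passing the filter and 16.2% of the bright genes. In 3 of the 4 this rested on 1 line: without SUP-T11 the range was 1.77 for PSMB10 and 1.29 for PSMG4, and without PEER it was 1.74 for PSMD5. An SD above 1 was seen in 2 members, PSMA8 and PSMD5, where 17.8% of genes had one. Only 5 members had an SD above the median of the genes passing the filter, with PSMB10, PSMB5 and PSMG4 as the others.

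**Figure D1:**
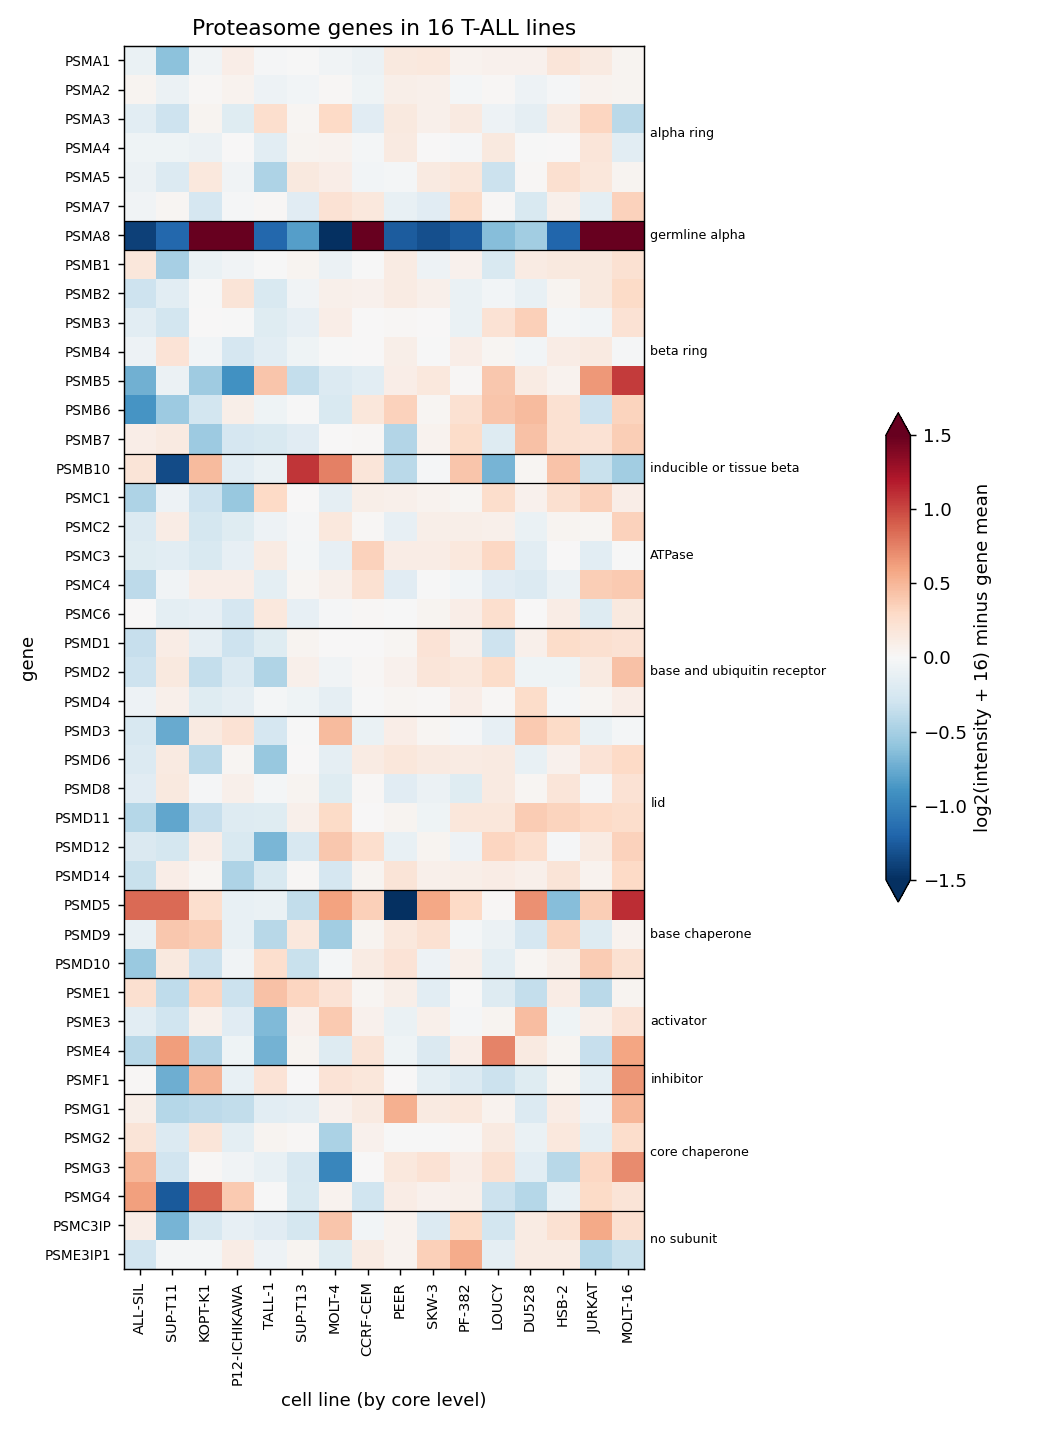
Colour gives log2(intensity + 16) minus the mean of the gene over the 16 lines, for the 42 proteasome genes (rows, grouped by role) and the 16 lines (columns, from the lowest core level in ALL-SIL to the highest in MOLT-16). Most cells are pale, the colour scale is clipped at 1.5 log2 units, and PSMA8, PSMD5 in PEER, PSMB10 and PSMG4 in SUP-T11 stand out.

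The alpha ring, which gates entry to the core, had SDs over lines from 0.057 to 0.21. PSMA2 was the flattest of all members with the probe set used: its intensity ran from 7139.9 in SUP-T11 over a median of 7669.8 to 8044 in PEER, a 1.13-fold range. Another bright probe set of PSMA2 was wider, from 964 in TALL-1 to 1844 in SUP-T13 (SD 0.29), and had r of 0.29 with it. PSMA4 ran from 7799 in TALL-1 to 9894 in JURKAT with a median of 8731. Neither gene had a line set apart.

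PSMA1 was even in 15 lines, from 7601 in ALL-SIL to 9226 in HSB-2, and lay at 5314 in SUP-T11, 1.43-fold below the next line. Its other probe sets also had SUP-T11 lowest and HSB-2 highest, with r of 0.998 and 0.99 to the one used. PSMA3 ran from 5784 in MOLT-16 to 9540.0 in JURKAT (median 7818), PSMA5 from 3400.0 in TALL-1 to 5541 in HSB-2 (median 4795) and PSMA7 from 7617 in KOPT-K1 to 11532 in MOLT-16 (median 9078). No line was at the bottom for all of these alpha genes: SUP-T11, TALL-1, MOLT-16 and KOPT-K1 each held a lowest value.

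PSMA8, the alpha subunit that takes the place of PSMA7 in germ cells, was present in some lines and near background in the others. It was at 901 in KOPT-K1, 657 in JURKAT, 574 in MOLT-16, 473 in CCRF-CEM and 383 in P12-ICHIKAWA. In the other 11 lines it ran from 17.95 in MOLT-4 to 57.5 in DU528, and the median over all lines was 37.4. The 5 high lines did not overlap the 11 low ones, and no fold is given because the low values were near the table median of 42.4 or below it. The 5 and 11 were split after the values were seen, and they rest on the only probe set that names PSMA8. Its SD of 1.76 was the largest of the members. Its r with the mean of the core genes was 0.13 over 16 lines. Among the other members its r was highest with the ATPase gene PSMC4, at 0.76, and lowest with PSMC6, at -0.37. In the 11 low lines these r values rest on levels near background.

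**Figure D2:**
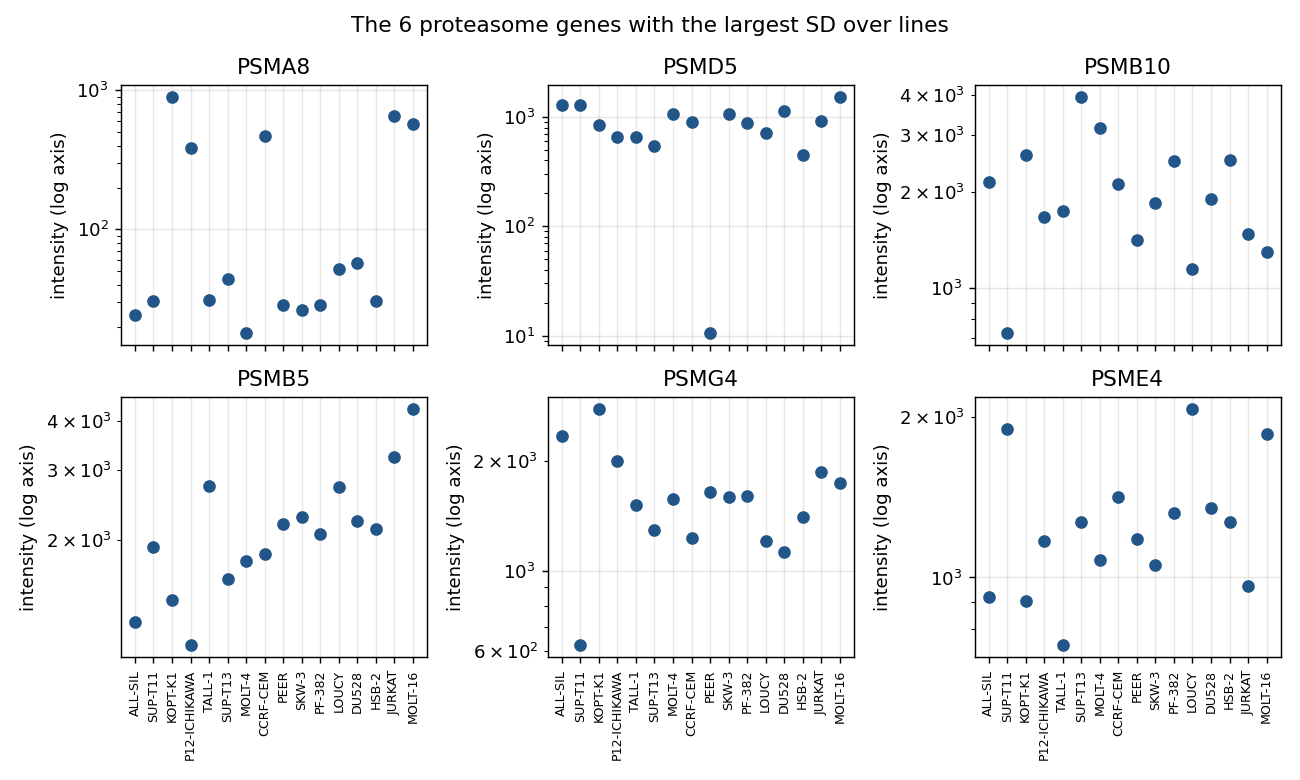
Each point is the intensity of 1 line (vertical log axis, a scale of its own per panel) for the 6 proteasome genes with the largest SD over lines, with the 16 lines in the order of their core level from left to right. PSMA8 falls into 5 high and 11 low lines, PSMD5 is at 10.5 in PEER alone, and the other genes spread without a break of that size.

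The beta ring carries the proteolytic sites, and its members differed in spread. The structural genes PSMB1, PSMB2, PSMB3 and PSMB4 had ranges of 1.66-fold, 1.52-fold, 1.55-fold and 1.38-fold between the highest and the lowest line. PSMB1 ran from 6742 in SUP-T11 to 11210.1 in MOLT-16 with a median of 9685, and PSMB4, the flattest of the ring, from 6888 in P12-ICHIKAWA to 9479 in SUP-T11. Another bright probe set of PSMB2 disagreed with the one used (r = -0.65), and it ran from 644 in MOLT-16 to 2071 in TALL-1. Its SD was 0.36, above the 0.28 of the catalytic gene PSMB7.

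The catalytic genes were wider. PSMB5, which encodes the chymotrypsin-like site that bortezomib and carfilzomib block, ran from 1089 in P12-ICHIKAWA over a median of 2103 to 4280.4 in MOLT-16, a 3.93-fold range with an SD of 0.50. Next to the lowest line were ALL-SIL at 1245, KOPT-K1 at 1417 and SUP-T13 at 1599, and next to the highest were JURKAT at 3234, TALL-1 at 2745 and LOUCY at 2723. The levels formed a continuous series, in which MOLT-16 lay 1.32-fold above the next line and P12-ICHIKAWA 1.14-fold below it. PSMB6, the caspase-like site, ran from 2417 in ALL-SIL and 3067 in SUP-T11 to 6260.0 in DU528 (median 4671, 2.59-fold). PSMB7, the trypsin-like site, ran from 3782 in KOPT-K1 to 7523 in DU528 (median 5659, 1.99-fold). The lowest line differed between the 3 catalytic genes, and SUP-T11, near the bottom for PSMB6, was at 6082 for PSMB7.

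PSMB10, the inducible counterpart of PSMB7, had the widest range of the beta genes. It was at 725 in SUP-T11, 1146 in LOUCY and 1293 in MOLT-16, had a median of 1876, and reached 3165 in MOLT-4 and 3951 in SUP-T13, 5.45-fold above SUP-T11. Its r with the core genes was -0.02. Its upstream sequence above holds the interferon response motif. Over the 16 lines its r was 0.83 with IRF1, a transcription factor of the interferon response, 0.65 with PSMB9, 0.63 with PSMB8, 0.62 with TAP1, a peptide transporter, and 0.52 with NLRC5, the activator of class I genes. It was 0.46 with HLA-B and 0.12 with B2M. These points share 1 array per line, and the r values describe these lines.

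The balance of each inducible gene to its constitutive counterpart was followed as the difference of their log2 values, set to 0 at the median line. For PSMB10 minus PSMB7 it ran from -1.57 in SUP-T11 and -0.99 in MOLT-16 to 0.93 in KOPT-K1 and 1.16 in SUP-T13. For PSMB8 minus PSMB5 it ran from -1.74 in SUP-T11 and -1.53 in MOLT-16 to 1.40 in P12-ICHIKAWA, and for PSMB9 minus PSMB6 from -2.26 in DU528 to 1.09 in SUP-T13. SUP-T11 and MOLT-16 lay below and KOPT-K1 and SUP-T13 above the median line in each of the 3 pairs, while P12-ICHIKAWA and TALL-1 took different places in different pairs. JURKAT, DU528, LOUCY and PEER were also below in all 3, and ALL-SIL, CCRF-CEM, HSB-2 and MOLT-4 above. In P12-ICHIKAWA PSMB5 was at its lowest, 1089, beside PSMB8 at 4011, and in TALL-1 PSMB10 was at 1742 with PSMB8 at 1559 and PSMB9 at 1142.

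The ATPases of the 19S base, which unfold the substrate, were even, with ranges from 1.42-fold for PSMC6 to 1.89-fold for PSMC1. PSMC1 ran from 2373 in P12-ICHIKAWA over a median of 3675 to 4486 in JURKAT. PSMC2 ran from 5258 in KOPT-K1 to 8056 in MOLT-16 (median 6432), and PSMC4 from 1647 in ALL-SIL to 2843 in MOLT-16 (median 2127). PSMC3 ran from 2463 in KOPT-K1 to 3663 in CCRF-CEM and PSMC6 from 4467 in P12-ICHIKAWA to 6336 in LOUCY. KOPT-K1, ALL-SIL and P12-ICHIKAWA were the lowest lines of all 5 ATPase genes, and the highest lines differed. Their median pairwise r was 0.43 over 10 pairs, against 0.26 over all pairs of core genes.

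PSMD1 and PSMD2, the large scaffolds of the base, had ranges of 1.55-fold and 1.85-fold. PSMD2 ran from 2510.0 in TALL-1 over a median of 3531 to 4656 in MOLT-16, and PSMD1 from 3005 in ALL-SIL to 4652 in HSB-2. PSMD4, a receptor for ubiquitin chains, was flat at 2751 in KOPT-K1 to 3806 in DU528, and both of its other bright probe sets also had these lines at the ends.

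In the lid, which holds the deubiquitinase PSMD14 and its scaffold, 3 of 6 genes passed a 2-fold range, and all 3 lie on chromosome 17. PSMD3 ran from 1215 in SUP-T11 over a median of 2047 to 2869 in MOLT-4, PSMD11 from 1497 in SUP-T11 over 2696 to 3366 in DU528, and PSMD12 from 1611 in TALL-1 over 2617 to 3433 in MOLT-4. SUP-T11 was lowest or next to lowest for all 3. A second probe set of PSMD11 had r of -0.06 with the one used and ran from 272 in MOLT-4 to 944 in TALL-1. A second probe set of PSMD12 disagreed with the one used (r = -0.35) and ran from 1111 in LOUCY to 1863 in SKW-3. The other lid genes were PSMD6 (3489.7 in TALL-1 to 6382 in MOLT-16), PSMD8 (3550.2 in MOLT-4 to 4691 in MOLT-16) and PSMD14 (3753 in P12-ICHIKAWA to 6371 in MOLT-16), each highest in MOLT-16.

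PSMD5 is a chaperone that holds ATPases of the base during assembly and is not part of the finished particle. It was at 10.5 in PEER, below the table median, and from 446 in HSB-2 to 1532 in MOLT-16 in the other 15 lines, with a median of 889. PEER did not overlap the other lines, and no fold is given because its value was below the table median. Among the members this was the only lowest line set apart by at least 1 log2 unit, a gap found in 5.57% of the genes passing the filter, and 0 members had a highest line set apart so, against 5.36%. The other probe set of PSMD5 was low in every line, from 4.14 to 30.5, so it could not be used as a second reading.

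The coding genes next to PSMD5 on chromosome 9, looked up after its value was seen, had no difference of that size in PEER. FBXW2, its neighbour on one side, was at 1254 in PEER and 0.53 log2 units below the median of the other lines (a difference of -0.53), and PHF19, on the other side, differed by 0.14. CDK5RAP2 differed by -0.55, MEGF9 by -0.60, CNTRL by -0.55 and RAB14 by -0.96. PEER was the lowest line for FBXW2, CNTRL and RAB14. The partner chaperones were above their medians in PEER, PSMD9 at 2052 and PSMD10 at 2771. Over all lines PSMD9 ran from 1273 in MOLT-4 over 1846 to 2437 in SUP-T11 and PSMD10 from 1629.5 in ALL-SIL over 2505 to 3143 in JURKAT. The core genes of PEER had a mean of 0.04 log2 units above their gene means.

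Activators open the gate of the 20S core in place of the 19S regulator. PSME1, a subunit of the interferon-inducible activator, ran from 4698 in JURKAT over a median of 6374 to 8468 in TALL-1, and its r was 0.65 with IRF1, 0.61 with PSMB10 and -0.26 with the core genes. PSME3, the nuclear activator, ran from 1149 in TALL-1 over 1900.2 to 2528 in DU528, and its 3 other probe sets had TALL-1 lowest as well. PSME4, an activator of nuclear and testis proteasomes, ran from 745 in TALL-1 over 1225 to 2074 in LOUCY. SUP-T11 at 1905 and MOLT-16 at 1864 were next to LOUCY. PSMF1, an inhibitor of the core particle, ran from 1094.5 in SUP-T11 over 1836 to 2903 in MOLT-16, a 2.65-fold range. TALL-1 was thus highest for PSME1 and lowest for PSME3 and PSME4.

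The chaperones of the 20S core, which assemble the alpha subunits before the beta subunits join, work as the pairs PSMG1 with PSMG2 and PSMG3 with PSMG4. PSMG1 ran from 3579 in SUP-T11 over 5024 to 6975 in PEER and its partner PSMG2 from 4149 in MOLT-4 over 5819 to 6905 in MOLT-16. PSMG3 ran from 1185 in MOLT-4 over 2370.1 to 3843 in MOLT-16, 3.24-fold. Its partner PSMG4 was at 623 in SUP-T11, 1.81-fold below the next line DU528 at 1125, had a median of 1580.4 and reached 2778 in KOPT-K1. With the mean of its 5 probe sets the range of PSMG4 was 0.86 log2 units over all lines. The probe sets of PSMG4 other than the one used never exceeded 4 times the table median, so this mean is no second reading of the gene. PSMG3 and PSMG4 did not have the same low line.

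Of the members that encode no subunit, PSMC3IP, a factor of meiotic recombination, ran from 385 in SUP-T11 over 639.7 to 951 in JURKAT. PSME3IP1, a partner of PSME3, ran from 1294 in JURKAT over 1755 to 2578 in PF-382. JURKAT was the highest line of the first and the lowest of the second.

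The level of the core genes in a line was taken as the mean over the 27 genes of the log2 value minus the mean of the gene. It ran from -0.22 in ALL-SIL, -0.14 in SUP-T11, -0.14 in KOPT-K1, -0.13 in P12-ICHIKAWA and -0.12 in TALL-1 to 0.11 in HSB-2, 0.11 in JURKAT and 0.20 in MOLT-16. In the remaining 8 lines it lay between -0.03 and 0.07. The whole span was 0.42, or 1.34-fold, with an SD of 0.12. In ALL-SIL 4 of the 27 core genes and in MOLT-16 22 of 27 were above their gene mean. MOLT-16 and ALL-SIL had the lowest array medians, 37.6 and 38.1. With each array centred on its median log2 value over the genes passing the filter, they were still the ends, at 0.29 and -0.20. Centring on the array medians themselves was not run. With quantile normalization JURKAT was highest and MOLT-16 stood at 0.16. With the most variable probe set of each gene HSB-2 and KOPT-K1 were the ends, MOLT-16 was at 0.017 and ALL-SIL at -0.10. With the mean of all probe sets MOLT-16 and ALL-SIL were still the ends, at 0.13 and -0.16. The order thus changed with the first of these choices of probe set and kept its ends with the second. Over the 16 lines the level had r of 0.09 with the 3′ to 5′ ratio of the ACTB control and 0.11 with the array median, and the part of either in the order of the lines was not tested.

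MOLT-16 was the highest line for 14 of the 42 members and 10 of the 27 core genes, where it was highest for 11.5% of the genes passing the filter. SUP-T11 was the lowest line for 11 members, against 13.2%. At 1.5-fold or more above the median of the other 15 lines, MOLT-16 had 6 members, PSMA8, PSMB5, PSMD5, PSME4, PSMF1 and PSMG3, which is 14.3% of them, close to the 14.8% of all genes passing the filter. At 1.5-fold or more below, SUP-T11 had 8 members, PSMA1, PSMB6, PSMB10, PSMD3, PSMD11, PSMF1, PSMG4 and PSMC3IP, of the 42, where 19.5% of genes did so. TALL-1 had 4 such low members (PSMD6, PSMD12, PSME3 and PSME4, with 15.2% of genes) and ALL-SIL 3 (PSMB5, PSMB6 and PSMD10, with 14.3%). SKW-3 and PF-382 had 0 members that far off in either direction, where 10.1% of genes were high and 8.96% low in SKW-3 and 10.3% high and 9.01% low in PF-382.

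**Figure D3:**
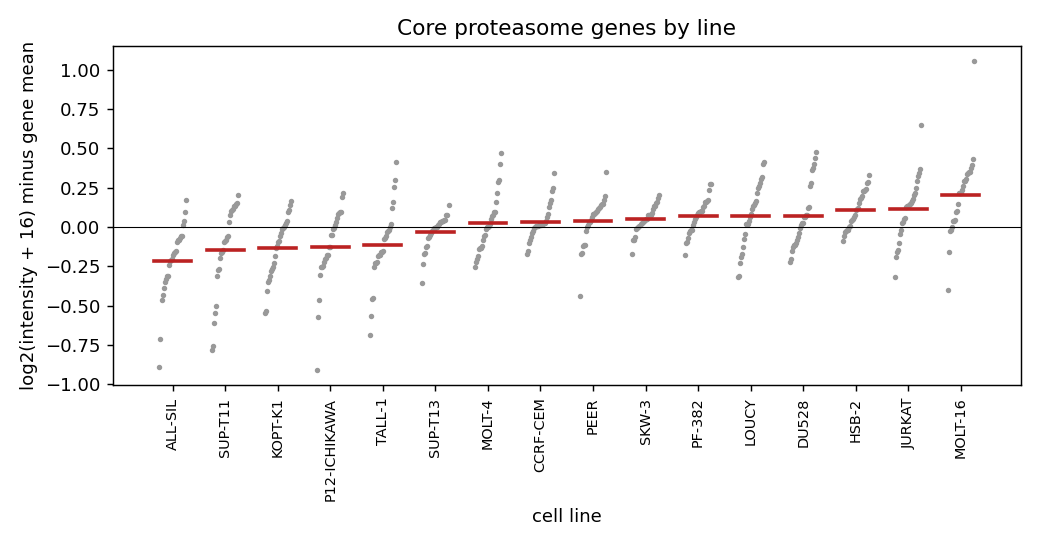
Each grey point is 1 of the 27 core genes in 1 line, as log2(intensity + 16) minus the mean of the gene, and the red bar is their mean in that line, with lines in the order of that mean. The bars rise from -0.22 in ALL-SIL to 0.20 in MOLT-16, with the single genes spread widely around them in MOLT-16 and most closely in SKW-3.

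The core genes varied together weakly. The median pairwise r over the 16 lines was 0.26 over their 351 pairs and 0.16 over the 861 pairs of all members, beside 0.005 over all pairs of genes passing the filter and 0.02 over pairs of genes with a mean above 10. It was 0.21 within the 20S core, 0.32 within the 19S regulator and 0.23 between them. An r above 0.5 was reached by 14.8% of core pairs and by 4.23% of all pairs. With the mean of the other core genes, r exceeded 0.5 in 12 of 27 core genes and in 4 of 15 other members, where 8.47% of the genes that are no members did so. PSMD11 (0.81), PSMD2 (0.69) and PSMB5 (0.67) were the nearest to it. PSME1, PSMG4, PSMD5, PSMD9 and PSMB10 had r below 0, none under -0.26, and 44.5% of other genes had r below 0.

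**Figure D4:**
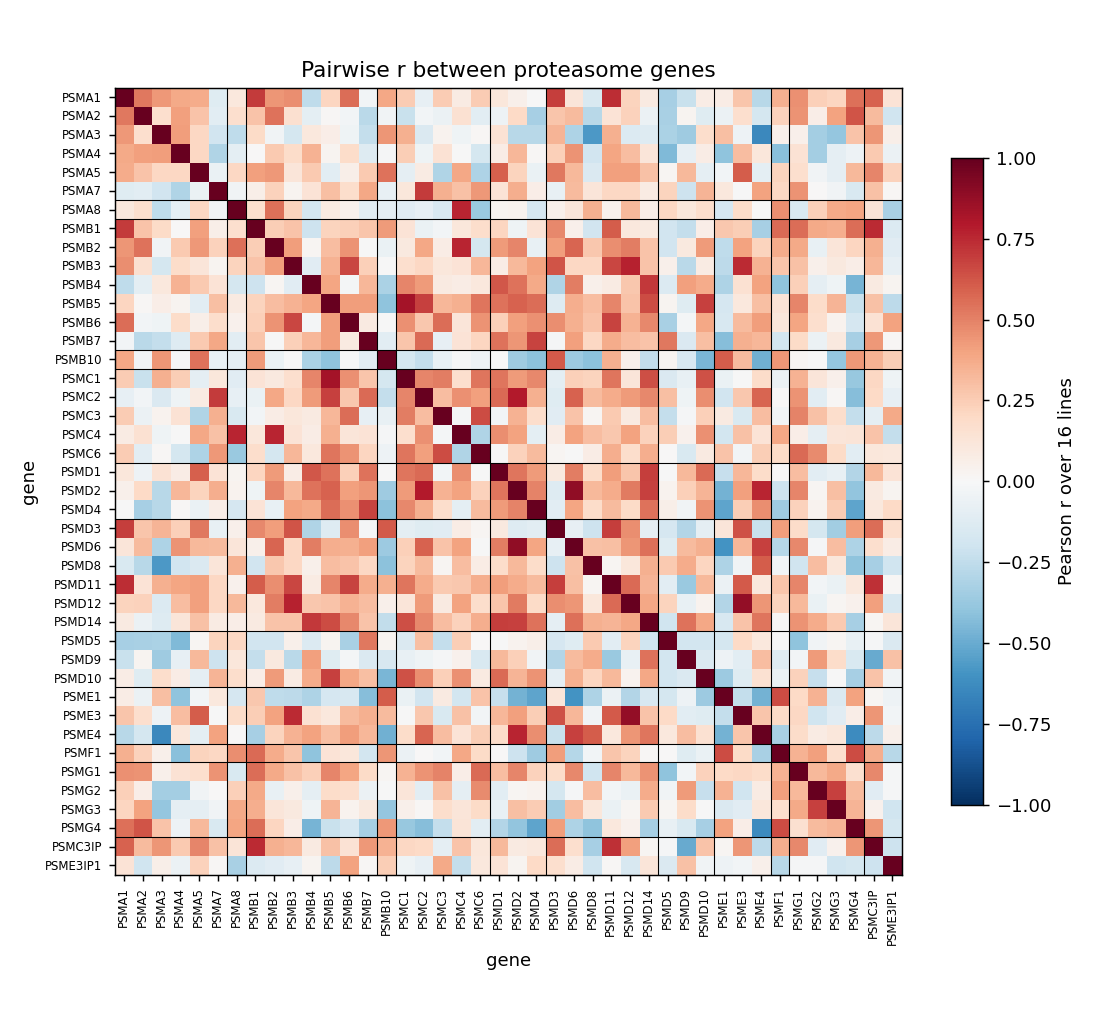
Colour gives Pearson's r over the 16 lines for each pair of the 42 proteasome genes, which are grouped by role as in the map of values by line. Patches of high r join the ATPases, base and lid, while PSME1, PSMB10 and PSMG4 have pale or blue rows against most core genes.

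The 3 pairs most alike each shared a chromosome. PSMD2 and PSMD6 on chromosome 3 had r of 0.89, PSMD12 and PSME3 on chromosome 17 had 0.88, and PSMB5 and PSMC1 on chromosome 14 had 0.83. The 0.88 holds for the probe sets used, as another bright probe set of PSMD12 had r of -0.35 with the one used. The promoter windows of PSMD12 and PSME3, printed above in their upstream part, share none of the motifs searched. The lowest pair was PSMA3 and PSME4 at -0.65. Over the 51 pairs on 1 chromosome the median r was 0.41, with 41.2% above 0.5, and over the 810 pairs on different chromosomes it was 0.13, with 7.90% above 0.5. Chromosome 17 gave 21 of these 51 pairs, with 61.9% above 0.5. The 10 pairs on chromosome 14 had a median r of 0.29, with 30% above 0.5. The share over all pairs of genes on 1 chromosome was not computed.

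The 7 members on chromosome 17, PSMB3, PSMB6, PSMD3, PSMD11, PSMD12, PSME3 and PSMC3IP, had a median r of 0.61 among themselves, where the other 801 genes of that chromosome had 0.06. Second bright probe sets of PSMD11 and PSMD12 had r of -0.06 and -0.35 with those used, so the 0.61 holds for the probe sets used. All 7 were below their mean in SUP-T11 (mean difference -0.52) and in TALL-1 (-0.31), and 0 of 7 were in DU528 (0.35). The other genes of chromosome 17 had a median difference of -0.18 in SUP-T11, -0.01 in TALL-1 and 0.37 in DU528. Without the chromosome 17 members the median r of the core genes was 0.23 over 22 genes. Their core level was then -0.06 in SUP-T11 and 0.0032 in DU528, and it had r of 0.95 with the level over all 27. This look at chromosomes was chosen after the pairs were seen.

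The same was then done for each member with its surroundings: the gene was set against the median of the 20 nearest other genes passing the filter, 10 on each side in RefSeq order, with members left out. The median r was 0.47 over the 42 members, against 0.28 over 13227 other genes treated alike, and 19 members had r above 0.5, or 45.2%, against 25.6%. The other genes were not matched to the members in brightness, and its part in this difference was not tested. It was highest for PSMA7 (0.84), PSMG3 (0.81), PSMB6 (0.80) and PSMB1 (0.80, with 12 neighbours), followed by PSMA4, PSMD2, PSMB5, PSME4 and PSMA1 at 0.74 or more. The neighbours of PSMD2 were at 0.32 in MOLT-16 and at -0.42 in TALL-1, and those of PSMB5 at -0.32 in P12-ICHIKAWA, so that they and the member were low or high in the same lines. In SUP-T11 the neighbours of PSMG4 were at -0.60, of PSMD11 at -0.52 and of PSMA1 at -0.25.

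Other members varied apart from their surroundings. The r was -0.26 for PSMC2, -0.15 for PSMA8, -0.14 for PSMA5, 0.06 for PSMB2, 0.08 for PSMB10 and 0.16 for PSMD12. For PSMD5 it was 0.69, with the neighbours at -0.62 in PEER, the line in which PSMD5 was near background. The range of PSMD5 was 5.87 log2 units over all lines and 1.74 without PEER, so that r rests largely on PEER. An r without PEER was not computed. Copy number was not analysed here, and its part in these values was not tested.

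**Figure D5:**
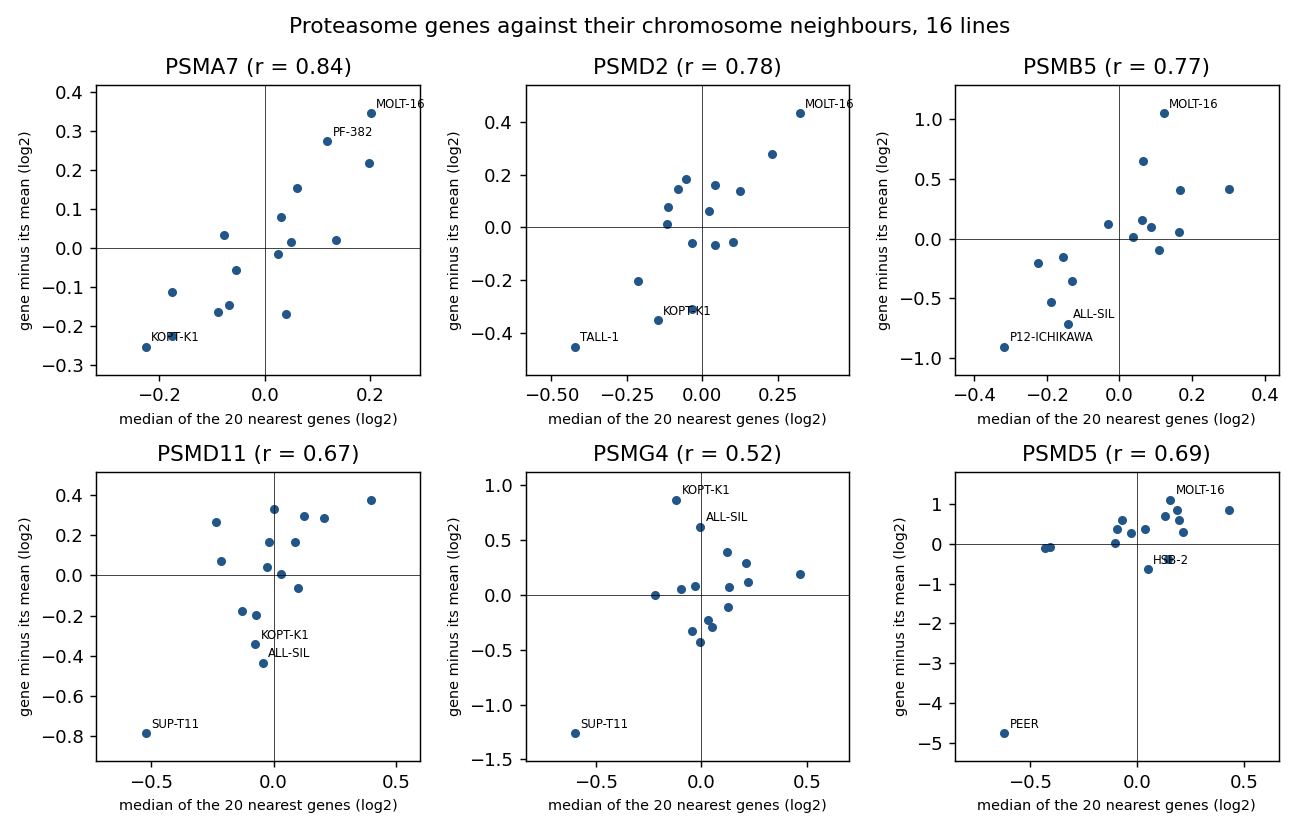
Each point is 1 line. The horizontal axis gives the median log2 level of the 20 nearest genes and the vertical axis the level of the proteasome gene, each as a difference from the gene's mean, with scales that differ between panels and the outermost lines named. SUP-T11 is low on both axes for PSMD11 and PSMG4, and PEER for PSMD5.

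Outside the members, the genes most like the level of the core genes over 16 lines were FZD5 (r = 0.90), EIF2S1 (0.90), MRPL44 (0.88), PLEKHA3, PPM1H, RIMKLA, UFD1 (0.85), FGFRL1, MRPS30 and ENTPD7. Of these 10 genes, 9 were highest in MOLT-16 and 7 lowest in ALL-SIL. The least like were PHC3 (-0.91), FRG1BP (-0.89), PNISR (-0.87), GNRH1 and JRK, all 5 lowest in MOLT-16. They were picked from all genes by r, so the values are a description.

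Factors that bind or build the proteasome were followed in a list of 11 genes, all measured, of which 3 had r above 0.5 with the core level. ADRM1, a ubiquitin receptor of the 19S base, ran from 1989.7 in KOPT-K1 over 2918 to 4853 in DU528 and had r of 0.65. PAAF1, a base chaperone, ran from 606 in SUP-T13 to 1492 in DU528 (r = 0.25), and AKIRIN2, which carries proteasomes into the nucleus, from 469.9 in MOLT-4 to 1612 in SUP-T11 (r = 0.10). ECPAS, a scaffold that binds the 26S particle, split the lines: it was at 53.7 or less in HSB-2, MOLT-4, PEER, PF-382, SKW-3 and TALL-1 and at 433 or more in the other 10, up to 1655 in MOLT-16. Its split was set after the values were seen, its r with the core level was -0.17, and PEER, with PSMD5 near background, was among the low lines. Another of its 4 probe sets had the same lines low, at 40.3 or less, and the others at 362 or more. A dimmer one had them at 16.2 or less and the others at 63.8 or more. In the remaining one the same lines were lowest, but LOUCY, at 33.3, lay beside HSB-2 at 29.0, so no gap was seen there.

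Of 16 genes for ubiquitin and its shuttles 12 were measured, and 3 had r above 0.5 and 0 below -0.5 with the core level, where 8.47% and 6.41% of all genes did so. The 4 with the largest range were SQSTM1, an autophagy receptor (389 in MOLT-4 to 2988 in DU528), VCP, the unfoldase upstream of the proteasome (1184 in SUP-T11 to 2954 in HSB-2), BAG6 and RAD23B, and none of the 4 was among the 3. UFD1, the VCP cofactor that was also among the genes most like the core level, ran from 2752 in ALL-SIL to 6183 in MOLT-16. The median SD of the 12 genes was 0.29.

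Of the 7 genes around NFE2L1 and the stress response 5 were measured. NGLY1, the glycosidase that NFE2L1 needs to become active, ran from 1961 in TALL-1 to 4450.2 in MOLT-16, with r of 0.56, and HSF1, the heat shock factor, from 883 in HSB-2 to 2583 in KOPT-K1, with r of -0.58. MAFG (896 to 1995) and NFE2L2 (1817 to 3882) had r of 0.31 and 0.19. NFE2L1 itself ran from 774 in KOPT-K1 over 1067 to 1648 in DU528, with r of 0.47. So 1 gene of the 5 passed 0.5 and 1 passed -0.5.

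The list of interferon-inducible antigen processing genes, 12 of 14 measured, had a median SD of 0.82, against 0.19 for the core genes, and a median r of -0.03 with the core level, with 0 genes above 0.5. NLRC5 was the widest, with SUP-T11 lowest at 8.42 and SUP-T13 highest at 1358, followed by ERAP2, HLA-B and HLA-C. SUP-T11 was the lowest line for PSMB10, PSMB8, TAP1, NLRC5 and IRF1, and SUP-T13 the highest for PSMB10, PSMB8, PSMB9, TAP1 and NLRC5. Of 6 proliferation genes, CCNB1 had r of 0.56 with the core level, TOP2A -0.62, MKI67 -0.20 and MCM5 0.18.

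Whether members followed a regulator was tested with limma, as the slope of each gene's log2 value on that of the regulator over the 16 lines, among 13294 genes with 42 members. For NFE2L1 0 members and 0 genes (0%) passed an adjusted p below 0.05 in either direction. At an unadjusted p below 0.05 there were 608 genes with a positive and 493 with a negative slope, among them 3 members (PSMB7, PSMD4 and PSME4) and 1 member (PSME1). PSMB7 had a slope of 0.66 with an SE of 0.19 (limma, adjusted p = 0.405) and PSME1 of -0.61 with an SE of 0.19 (limma, adjusted p = 0.468). The members' median slope was 0.12 and that of all genes 0.02. In simulated data of this design limma found only 9% of genes with a slope of 1 on NFE2L1. The members' median SD was 0.24, beside 0.41 over the genes passing the filter. Their SEs on NFE2L1 ran from 0.071 for PSMA2 to 1.52 for PSMA8. The share found at the members' own spread was not tested, so the 9% does not say how many of their slopes would be missed.

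For NLRC5 3 genes passed with a positive slope (0.0226%) and 0 with a negative one, and 0 were members. At an unadjusted p below 0.05 there were 783 and 319 genes, among them 1 member, PSMB10, with a slope of 0.17 and an SE of 0.071 (limma, adjusted p = 0.557). Arrays were also centred on their median over the genes passing the filter. There were then 443 genes with a positive slope at an unadjusted p below 0.05, of which 0 were members. With a negative slope there were 777, of which 5 were members. The median slope was then -0.02 for the members and for all genes, against 0.0077 and 0.0071 before. Without DU528, where NLRC5 was at 58.0, 46 genes passed with a positive and 3 with a negative slope, again with 0 members. In the simulation 84% of genes with a slope of 0.5 and 91% of those with a slope of 1 on NLRC5 were found. Both slopes were larger than that of any member, of which the largest in size was -0.30 for PSMD5. Recovery at smaller slopes was not simulated, so these shares do not say whether slopes like the members' would be found.

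For MYC, the growth regulator, 41 genes passed with a positive slope (0.308%) and 61 with a negative one (0.459%), with 0 members. At an unadjusted p below 0.05 there were 622 and 710 genes, and 1 member, PSMA5, with a slope of 0.05 and an SE of 0.025 (limma, adjusted p = 0.481). MYC was at 23.6 in LOUCY and from 3638 in TALL-1 to 9553 in MOLT-16 in the others, and without LOUCY 0 genes passed (556 and 531 at an unadjusted p below 0.05). The members had no call on any of the 3 regulators with limma run without its trend and robust options.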

How the data were processed

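Total RNA of 16 lines was hybridised to 1 Affymetrix array each, and the table deposited by the authors holds linear intensities per probe set. Which software, background correction and scaling made them is not given in the sources used here, and no further normalization was applied. Values were analysed as log2(intensity + 16). Of 54675 probe sets, 41042 named 1 gene of the reference annotation, and each gene took the one with the highest mean. The filter kept genes that exceeded the table median in at least 3 lines.

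The members, lists and tests were chosen with earlier results of these data known. All members are named. Of each other list the 4 genes with the largest range are named, and of all other genes the 10 most and 5 least like the core level. The remaining names were chosen after their values were seen, as were the chromosome comparisons. Lines were described without tests, and correlations carry no p. Regulators were tested with limma 3.58.1 (trend, robust) in R 4.3.3, with Benjamini-Hochberg adjustment over all genes tested. In simulated data with 13294 genes it recovered 2% of genes with a slope of 0.5 and 9% with a slope of 1 for NFE2L1, 84% and 91% for NLRC5, and 86% and 92% for MYC, with 0, 7 and 13 false calls. For NLRC5 and MYC both simulated slopes were larger in size than that of any member, and smaller ones were not simulated. The simulation on MYC included LOUCY. Descriptions used pandas 2.3.3, numpy 2.4.6 and scipy 1.17.1 under Python 3.11.15, and plots matplotlib 3.10.9. The number of arrays limits the precision. Alternatives were other pseudocounts (1 and 64), array scalings, choices of probe set, filters, covariates and correlation measures, and leaving out each line.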

Additional observations from a re-analysis of the deposited data

How the results depend on the processing

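Taking each gene's most variable probe set, 18 members had a range under 1 log2 unit, the median r of the core genes was 0.032, the line level spanned 0.22, MOLT-16 was at 0.017 and ALL-SIL at -0.10, and HSB-2 and KOPT-K1 were the ends. With the mean of all probe sets the median r was 0.10 and the span 0.28, PSMD5 ranged over 3.13 log2 units and PSMG4 over 0.86. The other probe sets of PSMD5 and PSMG4 were dim in every line. Of the 43 other probe sets of 24 members, 23 had r above 0.5 with the one used, and of the 29 bright ones 19 did. In 18 members there was 1 probe set. The bright ones with r of 0.5 or less belonged to PSMA2, PSMA5, PSMB2, PSMB4, PSMC2, PSMD11, PSMD12 and PSME4. The other pseudocounts and array scalings kept the median SD, the median r, the span and the count of narrow members within 1.5 times or within the spread. So did testing without the filter, run for the median SD and the median r, and Spearman's correlation and the control ratio, run for the median r. Leaving out each line in turn gave a median SD of 0.21 to 0.25, 28 to 32 narrow members, a median core r of 0.21 to 0.28, a span of 0.33 to 0.42, MOLT-16 at 0.19 to 0.21 and ALL-SIL at -0.23 to -0.20. Without PEER the range of PSMD5 was 1.74, and without SUP-T11 that of PSMG4 was 1.29 and that of PSMB10 1.77. No member was called on NFE2L1, NLRC5 or MYC under any of the alternatives run, and the most variable probe sets left 40 members in the test. No paired analysis was possible because all lines form 1 group and their numbers only name them.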
